A study of Mus musculus with 6 samples.

Results

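The annexins are calcium-dependent proteins that bind the inner face of membranes through acidic phospholipids. They share a conserved core that docks on the membrane, and their N-terminal tails differ and hold the sites for partner proteins. In blood-forming tissue they are known from membrane repair, vesicle traffic, control of inflammation and, for annexin A2, the adhesion of stem cells to the bone lining. Their transcripts were examined here in sorted haematopoietic stem cells that carried the chemokine receptor CCR2 on their surface or lacked it.

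The list held 8 genes, Anxa1 to Anxa7 and Anxa11, which were selected by symbol with the CCR2-positive against CCR2-negative contrast of these same arrays already known. The values of that contrast are therefore given as a description, with no test for any annexin on the list. Of the 8 genes, 7 had a probe set of their own, out of 22180 genes measured in this way. Anxa11 had none: its 3 probe sets are shared with 2 predicted genes, and it was not analysed here. Each of the 7 had 1 probe set, so no choice between probe sets was made for them.

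The cells came from C57BL/6J mice, and the labels name no transgene and no treatment and give no age. The CCR2-negative group had 3 pools and the CCR2-positive group had 3 pools, each pool combining the marrow of 20 mice and hybridised to 1 array. The labels do not say which other surface markers defined a stem cell in the sort, or whether the same animals gave pools to both groups. A pool of sorted cells gives an average, so fewer cells of a type and less RNA per cell cannot be told apart.

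The array medians lay between 5.48 and 5.58 on the log2 scale, and CCR2-positive replicate 3 correlated least with the other arrays across probe sets (mean r = 0.965 with the other group). Ccr2 itself measured 5.64, 6.26 and 5.83 in the CCR2-negative pools and 6.81, 7.10 and 6.18 in the CCR2-positive pools, which overlap. Over all genes 56% had a higher mean in the CCR2-positive group, and the counts of markers that follow were not tested. Stem cell markers were measured in both groups: Kit had means of 10.05 (CCR2-negative) and 9.73 (CCR2-positive). The 10 measured markers together had mean levels of 7.59 to 7.94 in the CCR2-negative pools and of 7.07 to 7.34 in the CCR2-positive pools, and 10 of 10 were lower in the CCR2-positive group. Ly6a was not analysed. Erythroid markers ran the other way, with mean levels of 8.26 to 8.76 and 8.98 to 9.48, and 9 of 9 were higher. Monocyte and macrophage markers (9 of 10 higher) had means of 6.19 to 6.53 and 6.52 to 6.99, and neutrophil markers (11 of 12 higher) had means of 5.47 to 6.09 and 5.70 to 6.67. Ccr2, whose protein defined the groups, is on the monocyte and macrophage list and counts among its higher genes. Megakaryocyte and platelet markers (4 of 7 higher) had 7.35 to 7.76 and 7.33 to 7.70, and lymphoid markers (7 of 8 higher) had 5.35 to 5.47 and 5.41 to 5.49. Basophil and mast cell markers (5 of 7 higher) had 5.68 to 5.88 and 5.48 to 6.45, and stroma and endothelium markers (4 of 9 higher) had 5.75 to 5.90 and 5.66 to 5.90. No detection call was available. As a rough guide to low signal, 11 genes of liver, pancreas, heart, kidney and other tissues had mean levels from 4.82 to 6.61, although probe sets differ in affinity and this range is no detection limit. Of these 11 genes, 8 were higher in the CCR2-positive group, with a median difference of 0.16. Their mean levels were 5.37 to 5.49 in the CCR2-negative pools and 5.52 to 5.68 in the CCR2-positive pools. Lists that were mostly higher had medians of 0.10 (lymphoid), 0.21 (neutrophil), 0.27 (basophil and mast cell), 0.33 (monocyte and macrophage) and 0.72 (erythroid). What the smaller of these shifts reflect was not tested.

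The DNA upstream of 4 annexin genes is shown first, because 3 of these genes (Anxa1, Anxa4 and Anxa5) had all CCR2-positive pools below all CCR2-negative pools and the other, Anxa2, did not. Each line gives the 250 bases before the transcription start in RefSeq's mouse annotation (build GRCm38.p6), 5′ to 3′ on the strand of the gene. The arrays' own build is not given in the sources used here. Windows were on file for 5 of the 7 measured annexins, with more than 1 start for Anxa4 and Anxa7, and for Anxa4 the start farthest upstream is shown. Capitals mark matches, on either strand, to 6 short motifs: the TATA box TATAAA, the GC box GGGCGG, the CCAAT box CCAAT, the AP-1 site TGAGTCA, the GATA site GATAA and the RUNX site TGTGGT. The positions are chr19:20390672-20390921 on the minus strand for Anxa1, chr6:86793585-86793834 on the minus strand for Anxa4, chr3:36475888-36476137 on the minus strand for Anxa5 and chr9:69453433-69453682 on the plus strand for Anxa2.
Anxa1: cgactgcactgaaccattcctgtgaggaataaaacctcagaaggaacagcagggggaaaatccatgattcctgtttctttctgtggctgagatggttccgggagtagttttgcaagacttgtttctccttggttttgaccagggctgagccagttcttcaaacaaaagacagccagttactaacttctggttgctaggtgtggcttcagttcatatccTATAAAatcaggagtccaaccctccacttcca
Anxa4: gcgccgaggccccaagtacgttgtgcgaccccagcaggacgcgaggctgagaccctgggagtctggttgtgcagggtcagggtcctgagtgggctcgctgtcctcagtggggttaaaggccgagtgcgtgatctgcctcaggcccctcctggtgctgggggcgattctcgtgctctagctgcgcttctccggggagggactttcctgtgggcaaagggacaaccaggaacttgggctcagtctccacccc
Anxa5: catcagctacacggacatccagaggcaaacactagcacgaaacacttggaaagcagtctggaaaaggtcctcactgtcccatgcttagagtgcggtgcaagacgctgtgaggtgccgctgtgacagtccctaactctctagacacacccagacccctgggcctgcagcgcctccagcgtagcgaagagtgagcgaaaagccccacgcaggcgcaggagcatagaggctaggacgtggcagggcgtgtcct
Anxa2: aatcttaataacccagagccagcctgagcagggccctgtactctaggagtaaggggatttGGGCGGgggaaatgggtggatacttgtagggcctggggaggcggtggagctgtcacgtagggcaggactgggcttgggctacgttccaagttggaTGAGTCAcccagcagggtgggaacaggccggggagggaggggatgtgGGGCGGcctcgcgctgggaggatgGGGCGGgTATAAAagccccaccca

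The windows shown for Anxa1, Anxa4 and Anxa5 had no motif in common among these 6. That of Anxa1 held a TATA box that begins 32 bases before the start, and 12.4% of all 32851 windows in the table hold this motif. It was poor in CpG, with 2 CpG dinucleotides and an observed over expected ratio of 0.151, against a median of 0.373 over all windows. The windows shown for Anxa4 and Anxa5 held none of the 6 motifs, and each had 13 CpG dinucleotides, with ratios of 0.500 and 0.602. The window at the other start of Anxa4, which is not shown, held a GATA site beginning 42 bases before that start and had 2 CpG dinucleotides, with a ratio of 0.196. The arrays do not tell which start was used. The window of Anxa2 held a TATA box beginning 17 bases before the start, 3 GC boxes (a motif in 32.7% of windows) and an AP-1 site (in 4.46%). No overlap between motifs occurred in these windows. The CCAAT box occurs in 33.8% of all windows, the GATA site in 22.6% and the RUNX site in 14.0%. A match is only a string of letters, and neither a match nor its absence was tied to the measured levels.

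**Figure D1:**
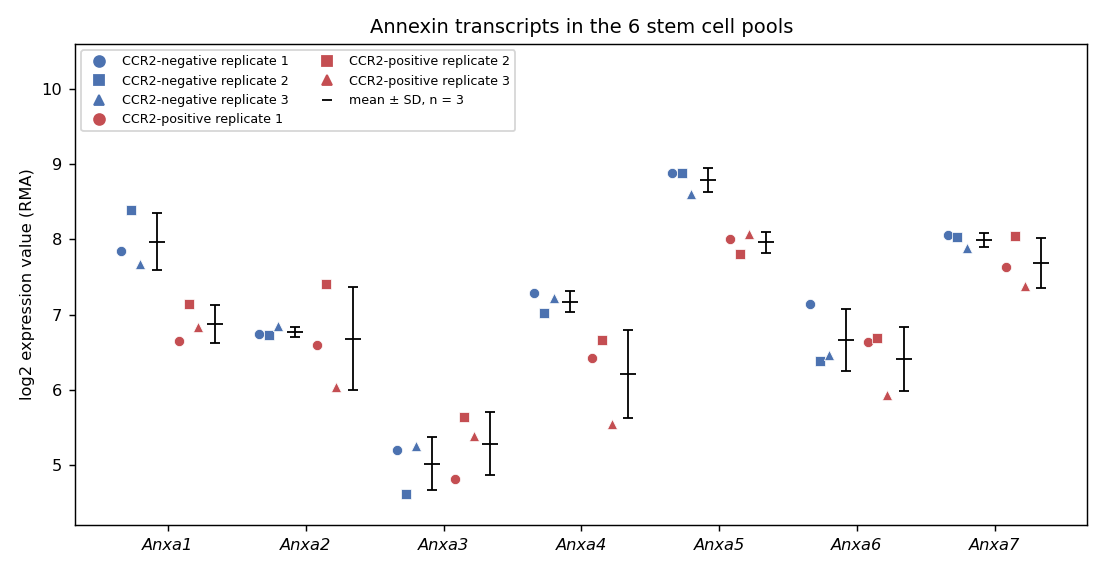
Log2 expression value (vertical axis, RMA) of the 7 measured annexins in each pool, CCR2-negative in blue and CCR2-positive in red, with 1 marker shape per replicate number and the mean ± SD of 3 pools beside the points. For Anxa1, Anxa4 and Anxa5 every red point lies below every blue point, whereas the colours overlap for Anxa2, Anxa3, Anxa6 and Anxa7.

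Most of the measured annexins had lower means in the CCR2-positive pools, although the differences of Anxa2 and Anxa6 were no larger than their errors. Of 7 genes, 6 were lower and 1 was higher, with a median log2 difference (CCR2-positive minus CCR2-negative) of -0.31, while over all genes 9758 were lower and 12422 higher, with a median of 0.03. Every CCR2-positive pool lay below every CCR2-negative pool for 3 of the 7, where 7.88% of all genes have this pattern, and 0 of the 7 had the opposite pattern, which 10.8% of all genes have. Because the list was drawn up from this contrast, nothing is read from these shares. In the limma fit over all genes 0% passed an adjusted p of 0.05 (Benjamini-Hochberg), and 12.2% had an unadjusted p under 0.05, which is 1249 genes higher and 1467 lower.

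Anxa1 had the largest difference on the list. Its protein, annexin A1, is induced by glucocorticoids, inhibits cytosolic phospholipase A2 and restrains neutrophil recruitment through formyl peptide receptors. Anxa1 measured 7.85, 8.39 and 7.67 on the log2 scale in CCR2-negative replicates 1 to 3, and 6.65, 7.15 and 6.83 in CCR2-positive replicates 1 to 3. All CCR2-positive pools lay below all CCR2-negative pools, and the nearest pools were 0.52 apart. The means were 7.97 ± 0.38 (SD, n = 3) and 6.88 ± 0.25 (SD, n = 3), so that Anxa1 was 2.14-fold lower in the CCR2-positive group (log2 difference -1.09 ± 0.20, SE). Replicate 2 was the highest pool within each group.

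Anxa5 had a small spread within either group. Annexin A5 binds phosphatidylserine and, labelled with a dye, is the common probe for dying cells. Anxa5 measured 8.88, 8.88 and 8.60 in the CCR2-negative pools and 8.01, 7.80 and 8.07 in the CCR2-positive pools. The range within a group was 0.27 for either group, and the nearest pools of different groups were 0.54 apart. The group means of 8.79 ± 0.16 and 7.96 ± 0.14 (SD, n = 3 each) gave a 1.78-fold lower level (log2 difference -0.83 ± 0.12, SE).

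Anxa4 was also lower in every CCR2-positive pool, but these pools were uneven. Annexin A4 aggregates on membranes, slows the movement of membrane proteins and takes part in membrane repair. Anxa4 measured 7.28, 7.02 and 7.21 in the CCR2-negative pools and 6.42, 6.66 and 5.54 in the CCR2-positive pools. The range was 0.27 among CCR2-negative and 1.12 among CCR2-positive pools, with CCR2-positive replicate 3 far below the other two, and the nearest pools of the groups were 0.36 apart. The difference was -0.97 ± 0.26 (SE), 1.95-fold lower, and it was -0.63 without CCR2-positive replicate 3. The Anxa4 mean of 6.21 in the CCR2-positive pools lay within the range of the genes of other tissues. The size of the difference is therefore uncertain.

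Anxa7, Anxa6 and Anxa2 had lower means in the CCR2-positive group, with pools that overlapped. Annexin A7, known as synexin, fuses secretory granules and binds sorcin and the calcium sensor ALG-2. Anxa7 measured 8.06, 8.04 and 7.89 in the CCR2-negative pools and 7.63, 8.04 and 7.38 in the CCR2-positive pools. CCR2-positive replicate 2 stood within the CCR2-negative values and the other CCR2-positive pools below them. The difference of -0.31 ± 0.17 (SE) became -0.49 when CCR2-positive replicate 2 was left out and -0.16 when replicate 3 of that group was.

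Annexin A6 carries a repeated core and acts in endosomes and cholesterol transport. Anxa6 measured 7.14, 6.39 and 6.45 in the CCR2-negative pools and 6.63, 6.69 and 5.92 in the CCR2-positive pools. CCR2-negative replicate 1 was high and CCR2-positive replicate 3 low, and the remaining 4 pools lay close together. The difference was -0.25 ± 0.25 (SE), no larger than its error, and -0.0002 without CCR2-positive replicate 3.

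Annexin A2 pairs with S100A10 at the cell surface and there promotes the activation of plasminogen. Anxa2 measured 6.74, 6.72 and 6.85 in the CCR2-negative pools and 6.60, 7.40 and 6.04 in the CCR2-positive pools. The CCR2-negative pools spanned 0.13 and the CCR2-positive pools spanned 1.37, with CCR2-positive replicate 2 the highest and replicate 3 the lowest of all 6. The group means differed by -0.09 ± 0.29 (SE), and the sign turned to 0.23 without CCR2-positive replicate 3, against -0.45 when replicate 2 of that group was left out.

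Anxa3 was the 1 annexin on the list with a higher mean in the CCR2-positive group. Annexin A3 is abundant in neutrophils, where it is found on granules. Anxa3 measured 5.19, 4.61 and 5.25 in the CCR2-negative pools and 4.82, 5.64 and 5.38 in the CCR2-positive pools. CCR2-positive replicate 1 lay among the CCR2-negative values and the groups overlapped. The difference of 0.26 ± 0.24 (SE) was about as large as its error, and it was 0.06 when CCR2-negative replicate 2 was left out. Leaving out CCR2-positive replicate 2 gave 0.08, leaving out CCR2-positive replicate 1 gave 0.50, and limma's array weights gave 0.01. The mean level of Anxa3, 5.15, lay within the range of the genes of other tissues given above, as did that of Anxa6 (6.54).

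**Figure D2:**
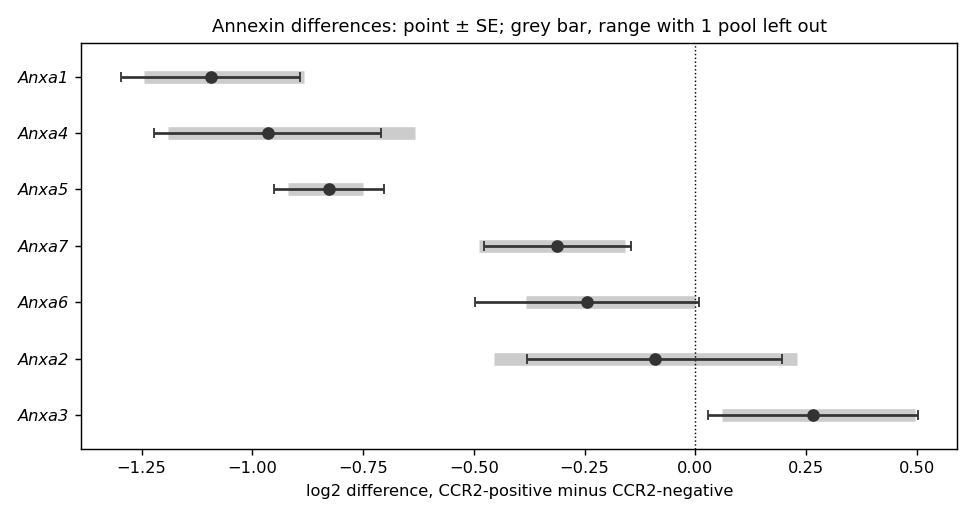
Log2 difference (horizontal axis, CCR2-positive minus CCR2-negative) of the 7 measured annexins, as a point with its standard error, with a grey bar that spans the values found when each of the 6 pools was left out in turn. The bars of Anxa1, Anxa4 and Anxa5 run from -1.25 to -0.63 and stay well below 0, and that of Anxa2 crosses 0. The bar of Anxa6 ends at -0.0002, and that of Anxa3 comes down to 0.06.

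The pools differed in their annexin pattern beyond the division by CCR2. In CCR2-negative replicate 1, 7 of 7 annexins lay above their own mean over the 6 pools, and it was the highest pool for 4 of them (Anxa4, Anxa5, Anxa6 and Anxa7). CCR2-positive replicate 3 was the lowest pool for 4 (Anxa2, Anxa4, Anxa6 and Anxa7), and 1 of 7 lay above its own mean there. CCR2-positive replicate 2 was the highest pool for Anxa2 and Anxa3, which lay 0.68 and 0.49 above their means, and the lowest for Anxa5, at -0.57. CCR2-positive replicate 2 also had the highest mean level of the neutrophil markers (6.67), of the monocyte and macrophage markers (6.99) and of the erythroid markers (9.48), and the lowest of the stem cell markers (7.07). Between the groups, Anxa1, Anxa4 and Anxa5 were lower where the stem cell markers were lower and the erythroid markers higher. Within the CCR2-positive group, replicate 2 had the lowest stem cell and highest erythroid markers. Anxa5 was lowest in that pool (7.80), whereas Anxa1 and Anxa4 were highest there (7.15 and 6.66). Replicate 3 had the highest stem cell markers of that group (7.34), the highest Anxa5 (8.07) and the lowest Anxa4 (5.54). The part of these marker levels in the annexin values was not tested.

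**Figure D3:**
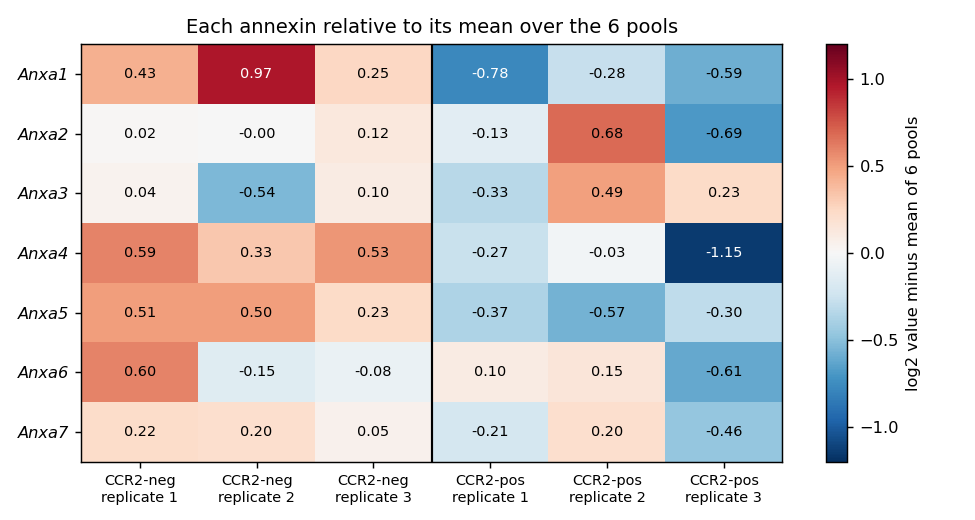
Each cell gives the log2 value of 1 annexin (rows) in 1 pool (columns) minus that gene's mean over the 6 pools, red above and blue below, with the CCR2-negative pools left of the black line. The rows of Anxa1, Anxa4 and Anxa5 are red on the left and blue on the right, and CCR2-positive replicate 3 holds the lowest cell, -1.15 for Anxa4.

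Genes with a profile close to that of an annexin were looked up for the 2 ends of the list, over 10141 genes. These were the genes above the median level, leaving aside small RNAs, RIKEN clones and genes that are only predicted. The measure was the root mean square distance over the 6 pools between values centred on each gene's own mean. Nearest to Anxa1 were Apol7e (0.122), Zfp825 (0.141) and Ube2e2 (0.147), where the profile of Anxa1 itself spread by 0.607. Their differences were -0.88 ± 0.20, -0.95 ± 0.15 and -0.92 ± 0.16 (SE). Nearest to Anxa3 were Zc3h12a (0.055), Prmt9 (0.129) and Slc25a22 (0.144), where the profile of Anxa3 spread by 0.344. How close the nearest profile lies for other genes was not measured, and these neighbours are a description of the 6 pools.

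The 4 annexins outside the list had differences between -0.40 and 0.03, with overlapping pools for each. Anxa9 measured 7.10, 6.68 and 6.35 in the CCR2-negative pools and 6.52, 6.60 and 5.79 in the CCR2-positive pools, a difference of -0.40 ± 0.25 (SE, limma adjusted p = 0.543). Anxa8 (-0.03 ± 0.11), Anxa10 (-0.06 ± 0.10) and Anxa13 (0.03 ± 0.12) had small differences, and their pools spanned 0.27, 0.18 and 0.29 over all 6 arrays. The mean levels of Anxa8 and Anxa10, 4.62 and 4.21, lay below the whole range of the genes of other tissues, so little can be said of their presence. Those of Anxa9 and Anxa13, 6.51 and 5.64, lay within that range. None of the 4 passed the threshold over all genes, and 0 had an unadjusted p under 0.05.

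Partner proteins of the annexins were measured in the same fit. Of 12 genes for annexin-binding S100 proteins and other partners, 4 were higher and 8 lower, with a median of -0.11; 0 passed in either direction, and 3 had an unadjusted p under 0.05, all lower, where 12.2% of all genes have such a p. S100a10, the partner of annexin A2, measured 10.17, 10.53 and 10.19 in the CCR2-negative pools and 10.25, 10.28 and 10.23 in the CCR2-positive pools. Its difference was -0.05 ± 0.12 (SE), and the groups overlapped. S100a11, the partner of annexin A1, differed by 0.0016 ± 0.12, and S100a6, which binds several annexins, by -0.14 ± 0.16. These 3 partner transcripts showed differences no larger than their errors, in the same pools in which Anxa1 was 2.14-fold lower.

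Pdcd6, which encodes ALG-2, differed by -0.08 ± 0.14, Sri, which encodes sorcin, by -0.18 ± 0.13, and Ahnak, a scaffold for the annexin A2 complex, by 0.26 ± 0.15 (SE). The mean level of Ahnak, 5.60, lay within the range of the genes of other tissues. Pla2g4a, the cytosolic phospholipase A2 that annexin A1 inhibits, measured 8.35, 8.40 and 8.09 in the CCR2-negative pools and 7.88, 7.64 and 7.66 in the CCR2-positive pools. It was 1.47-fold lower (-0.56 ± 0.13, SE, limma adjusted p = 0.183), with no overlap between groups. Of the 12 genes, 2 (Pla2g4a and Gca) had this pattern, which 7.88% of all genes have. Gca encodes grancalcin, and it is on the list as a calcium-binding relative of sorcin, not as a known partner of an annexin. Gca measured 5.92, 5.70 and 5.76 against 5.15, 4.24 and 4.23. The difference was -1.25 ± 0.23 (SE), with no overlap and a limma adjusted p of 0.177. Its mean of 4.54 in the CCR2-positive pools lay below the whole range of the genes of other tissues, so the size of the difference is uncertain. It passed at an adjusted p of 0.029 without CCR2-positive replicate 1, with values from 0.127 to 0.474 in the other settings that kept it. In the other direction S100a8 and S100a9, which are also on the neutrophil list, differed by 1.08 ± 0.96 and 0.74 ± 0.45 (SE), with overlapping groups. S100a13 differed by -0.38 ± 0.16 (limma adjusted p = 0.380).

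The other sides of annexin biology gave 0 genes past the threshold in either direction. Of 7 measured genes for annexin A1 receptors and glucocorticoid responses, 5 were higher and 2 lower, with a median of 0.01 that turned to -0.01 with median centring, and 0 had an unadjusted p under 0.05. Nr3c1, the glucocorticoid receptor, differed by 0.21 ± 0.15 and Tsc22d3, a standard glucocorticoid-induced gene, by -0.10 ± 0.14 (SE). The clock gene Per1, also glucocorticoid-induced, differed by -0.21 ± 0.15. Fpr2, a receptor of annexin A1, had a mean of 3.33 in either group, below the range of the genes of other tissues, and Fpr1 and Fpr3 were not analysed.

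Of 6 plasminogen activation genes 4 were higher and 2 lower (median 0.05). At an unadjusted p under 0.05 (limma) 1 was lower and 0 higher. Over all genes 12.2% had such a p in either direction, and 1467 of 22180 were lower with it. The list gene with such a p was Plgrkt, a plasminogen receptor, at -0.28 ± 0.12 (SE, limma adjusted p = 0.401). The plasminogen activators Plat and Plau differed by 0.17 ± 0.15 and -0.08 ± 0.11, and their mean levels of 6.54 and 5.97 lay within the range of the genes of other tissues.

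Of 17 plasma membrane repair genes 8 were higher and 9 lower (median -0.04). At an unadjusted p under 0.05 (limma) 3 were lower and 0 higher. Over all genes 12.2% had such a p in either direction, and 1467 of 22180 were lower with it. Capn2, a calpain protease gene, measured 6.35, 6.43 and 6.13 against 5.69, 5.81 and 5.91, a difference of -0.50 ± 0.12 (SE, limma adjusted p = 0.190). The mean level of Capn2, 6.05, lay within the range of the genes of other tissues. The small calpain subunit gene Capns1 differed by -0.33 ± 0.10 (adjusted p = 0.277, limma) and Mcoln1, a lysosomal calcium channel gene, by -0.41 ± 0.14 (adjusted p = 0.292, limma). The groups did not overlap for these 3 genes, a pattern that 7.88% of all genes have in this direction.

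Of 16 genes for phosphatidylserine exposure and its recognition, 8 were higher and 8 lower (median -0.02), with 1 lower at an unadjusted p under 0.05, against 12.2% of all genes. That gene was Pros1, which encodes protein S, a bridge between phosphatidylserine and the TAM receptors, at -0.30 ± 0.13 (SE, limma adjusted p = 0.397). Mfge8, another bridging protein, differed by -0.30 ± 0.15 and the receptor Tyro3 by 0.22 ± 0.13. Timd4 (0.16 ± 0.10, SE) and Stab1 (0.13 ± 0.09) were higher with no overlap, a pattern that 10.8% of all genes have. Pros1 was lower with no overlap, as 7.88% of all genes are. The mean levels of Timd4 (4.96), Stab1 (5.54) and Pros1 (5.53) lay within the range of the genes of other tissues, and that of Tyro3 (4.797) just below it.

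The copines, which also bind membranes in a calcium-dependent way but through C2 domains, were mixed in direction. Of 7 measured, 4 were higher and 3 lower, with a median of 0.04 that turned to -0.02 with cyclic loess and to -0.57 among genes above the median level. The last value leaves out Cpne4, Cpne5 and Cpne9 and lies between those of Cpne2 and Cpne3, so it does not describe the whole family. The 4 higher copines (Cpne4, Cpne5, Cpne7 and Cpne9) differed by 0.04 to 0.14, and their mean levels of 4.30 to 5.70 lay within or below the range of the genes of other tissues, as did that of Cpne8 (5.72). The 3 lower genes all had an unadjusted p under 0.05, as 12.2% of all genes did, and 0 passed over all genes. Cpne8 measured 6.07, 6.21 and 6.03 in the CCR2-negative pools and 5.43, 5.01 and 5.54 in the CCR2-positive pools, 1.71-fold lower (-0.78 ± 0.15, SE, limma adjusted p = 0.177). Cpne3 was 1.63-fold lower (-0.71 ± 0.17, SE, limma adjusted p = 0.191). The groups did not overlap for either gene, a pattern that 7.88% of all genes have in this direction. Cpne2 differed by -0.43 ± 0.18 (limma adjusted p = 0.377).

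**Figure D4:**
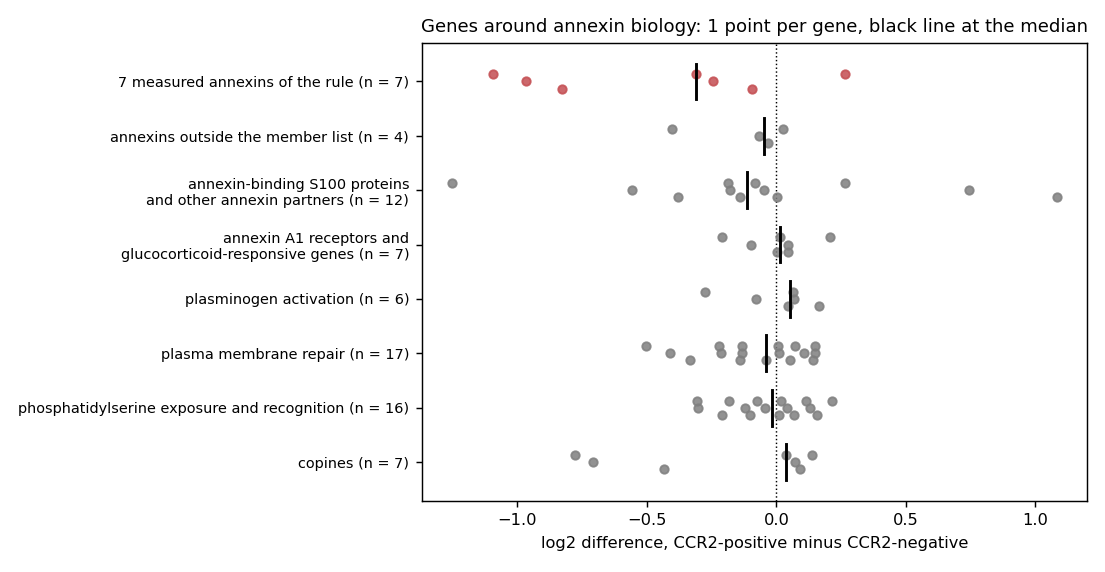
Log2 difference (horizontal axis, CCR2-positive minus CCR2-negative) of each gene, 1 point per gene, for the 7 measured annexins (red) and the 7 lists around them (grey), with a black line at each median. The annexin median is -0.31 and the other medians lie between -0.11 and 0.05 with dim genes included. Above the median level the copine median is -0.5704 and the annexin median -0.5698. Cpne4, Cpne5 and Cpne9 then drop out, and the copine value lies between those of Cpne2 (-0.43) and Cpne3 (-0.71). That of the annexins outside the list is then -0.4043, from Anxa9 alone. The partner list runs from -1.25 (Gca) to 1.08 (S100a8).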

How the data were processed

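Transcripts of 6 stem cell pools, 3 per group, were measured on whole-transcript arrays after amplification of 5 ng of total RNA, per the labels' protocols. The authors deposited 1 table of log2 values for 41345 probe sets, made with RMA per the submitters' processing notes, of which the notes give no version or settings. RMA evens out total signal between arrays, so differences are relative to other genes, and amplification adds spread. Depth does not apply to arrays: their number limits the precision, and signal over background is unknown.

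Probe sets with 1 gene in the platform annotation (23521) were used, and for each gene the one with the highest mean. The groups were compared with limma 3.58.1 in R 4.3.3 (lmFit, eBayes, no covariate), with Benjamini-Hochberg adjustment over 22180 genes and a threshold of 0.05; the fit was first tested on simulated data. Standard errors are limma's. The annexins and gene lists were chosen with earlier results of these data known. Named genes were all annexins, key partners, the 3 list genes with the smallest p, and the 3 nearest profiles. The design calls the pools biological replicates. Deviations of same-numbered pools were weakly correlated (r = 0.035, 0.089 and 0.045 across genes, which are not independent replicates). For pools of different number r ran from -0.102 to 0.068. The number was not taken as a pairing, but these values cannot decide whether pools shared animals. Alternatives were other scalings, filters on dim genes, the replicate block, trend and robust moderation, array weights, probe set means and leaving out each pool.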

Additional observations from a re-analysis of the deposited data

How the results depend on the processing

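Of 104 recomputed annexin differences, 1 turned its sign, that of Anxa2. Many of the 104 could not move. The filters on dim genes, the replicate block, the trend and robust moderation and the probe set means leave each difference as it was. Only the scalings, the array weights and the left-out pools could change a sign. With each pool left out, the differences ran from -1.25 to -0.88 for Anxa1, -0.45 to 0.23 for Anxa2, 0.06 to 0.50 for Anxa3, -1.19 to -0.63 for Anxa4, -0.92 to -0.75 for Anxa5, -0.38 to -0.0002 for Anxa6 and -0.49 to -0.16 for Anxa7. The annexin median ran from -0.49 to -0.16 in the same way, and was -0.57 among genes above the median level, where Anxa3 is no longer included. Genes at an unadjusted p under 0.05 numbered 2716 in the fit as reported, from 1921 to 3035 with a pool left out, and 1524 above the median level, where fewer genes (11090) are tested. Genes past the threshold numbered 0 in the other settings, and 2 (Gca and Mcpt8) without CCR2-positive replicate 1. The replicate block cannot change the differences in this balanced layout, only their errors. With it 0 genes passed, and 1299 higher and 1636 lower genes had an unadjusted p under 0.05. The smallest limma adjusted p over all genes was 0.0618 with the block, against 0.177 in the fit as reported. The share of higher genes among those at an unadjusted p under 0.05 was 46.0% as reported, 54.4% after a second quantile normalization, 38.8% with median centring and 26.3% above the median level.

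Of 105 recomputed list medians, 19 turned their sign, all of lists whose median was within 0.06 of 0. The copine median was -0.0183 with cyclic loess, -0.179 and -0.570 with the filters on dim genes, -0.0086 with array weights, and -0.0404 to 0.0442 with a pool left out. The value of -0.570 lies between those of Cpne2 and Cpne3, with fewer copines left. That of receptors and glucocorticoid genes was -0.0103 with median centring and -0.0352 to 0.0516 with a pool left out. That of plasminogen activation was -0.0159 above the median level and -0.0140 to 0.0592 with a pool left out. With array weights the medians of membrane repair and phosphatidylserine genes were 0.0042 and 0.0175, and with a pool left out they ran from -0.0835 to 0.0362 and -0.0632 to 0.0098. Above the median level they were -0.133 and -0.0992. The median of the annexins outside the list ran from -0.0952 to 0.0041 with a pool left out. It was -0.110 with cyclic loess, and -0.189 and -0.404 with the filters on dim genes. The last value is that of Anxa9 alone. The cause of these shifts was not tested.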
